A study of Mus musculus with 23 samples.

Results

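Libraries of 6 PyMT tumors from mice that received anti-IL-38 were compared with 5 from mice that received an isotype control. All genes that averaged 5 or more normalized counts over these 11 tumors were tested. This left 16002 of 47643 listed genes, and the 11 libraries are part of a table of 19 and of a series of 23. The mice of both groups were female PyMT WT mice on a C57BL/6 background, in which the polyoma virus middle T oncoprotein drives mammary carcinoma, and all carried an intact IL-38 gene. The antibody e04, an IgG1 that binds mouse IL-38, or human IgG1 was given weekly over 5 weeks, starting after a first tumor had grown. Tumors were dissociated and the RNA of all their cells was sequenced together with QuantSeq, a method that reads the 3′ ends of transcripts. Normalized counts are the read counts of a library divided by its size factor, and a log2 fold change is the difference of group means of log2(normalized count + 1), anti-IL-38 minus isotype. In such bulk RNA, fewer cells of a type and less RNA per cell cannot be told apart. The labels give each library as a separate sample and say nothing further of where it came from, so that the p-values measure the spread between these 11 tumors.

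Background on the biology helps to order the genes. IL-38 is a cytokine of the IL-1 family that dampens inflammatory signals, among others IL-17 production by γδ T cells. PyMT tumors arise from luminal mammary epithelium, which responds to ovarian hormones and to ligands of the EGF receptor family, and they hold many macrophages beside fibroblasts, vessels and few lymphocytes. Replication and mitosis genes are transcribed in dividing cells, the first largely through E2F factors and the second through the cell cycle homology region (CHR).

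Each library held 10138353 to 14640084 reads on genes, and no pair of them agreed within sampling noise. The transcript of IL-38 itself, Il1f10, had 0 reads in all 11 tumors, which allows up to 0.205 to 0.296 CPM depending on the library (3 counts, counting error only), so that the antibody's target could not be followed at the RNA level. The labelled tissue was checked with markers. The luminal keratin Krt8 was at 1064 to 2009.9 normalized counts in isotype tumors and 1252 to 4288 on anti-IL-38, the epithelial adhesion gene Epcam at 2811 to 12801 and 5699 to 13431, and the macrophage marker Adgre1 at 1239 to 1725 and 1010.0 to 1498. Isotype replicate 5 stood apart from the other 10 tumors, at −105 on the first principal component (22.4% of the variance) against −25.3 to 49.4, and values of many lists are also given without it. The share of reads on Gm42418, a gene that overlaps ribosomal RNA, was 2.62% to 4.99% in isotype tumors and 3.87% to 5.51% on anti-IL-38, lowest in isotype replicates 1 and 2. Its part in the results was not tested.

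The transcriptomes of the groups separated weakly. Of the variance of all tested genes, 13.7% lay between the groups (exact permutation test over 462 groupings, p = 0.0281). The permutation took no account of the ranges of the description numbers given below. It was not repeated without isotype replicate 5. With limma, 0 genes (0.0%) passed an adjusted p of 0.05, the smallest being 0.304, while 1682 genes (10.5%) had an unadjusted p under 0.05, 897 of them higher (5.61%) and 785 lower (4.91%) on anti-IL-38. DESeq2 on the recovered reads called 75 genes (0.469%), 59 higher (0.369%) and 16 lower (0.1%), whereas in edgeR 0 passed and 1714 (10.7%) lay under an unadjusted 0.05. In 167 genes (1.04%) the groups did not overlap, with all 6 tumors on anti-IL-38 above every isotype tumor in 64 (0.4%) and below in 103 (0.644%). The median log2 fold change over all tested genes was 0.00188, the 5th percentile was −0.56 and the 95th 0.88, so that the values below are read against a centre near 0. Adjusted p-values without another name come from limma.

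**Figure D1:**
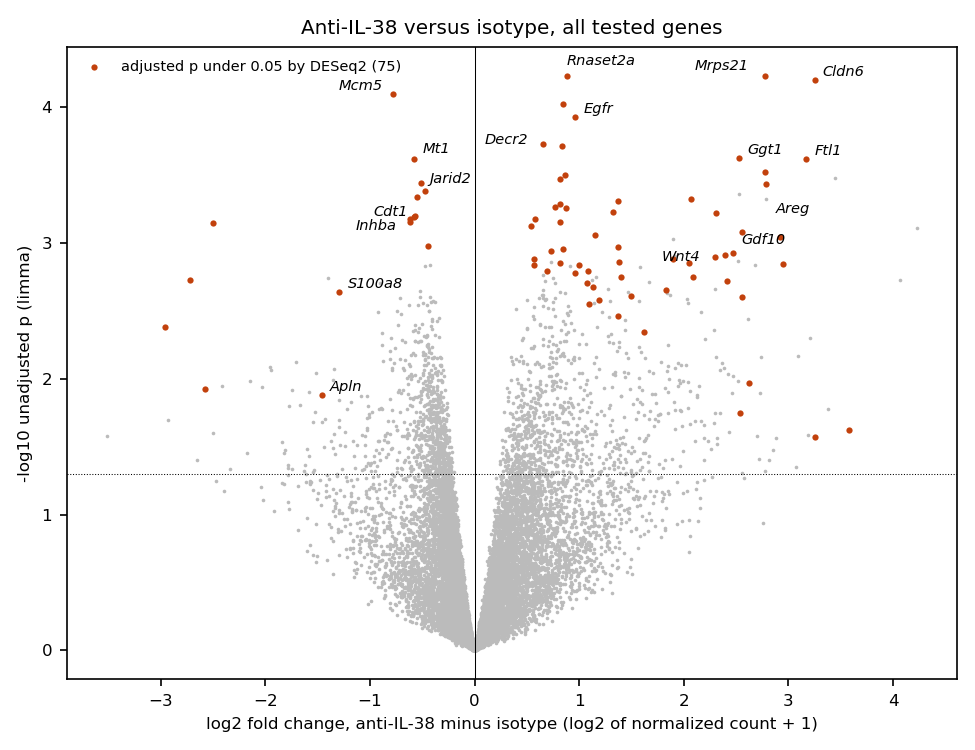
Each point is 1 of the 16002 tested genes, with the log2 fold change of anti-IL-38 over isotype on the horizontal axis and −log10 of the unadjusted limma p on the vertical axis, with a dotted line at 0.05. The 75 genes that DESeq2 called are in orange, 59 of them to the right of 0.

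Among the genes with the smallest p, those higher on anti-IL-38 included an ErbB receptor, a claudin and secreted signals of the mammary epithelium. Egfr, the receptor of EGF and amphiregulin, had 561, 574, 568, 606 and 599 normalized counts in isotype replicates 1 to 5 and 739.9 to 1647 with a median of 1121 on anti-IL-38. All tumors on the antibody lay above all isotype tumors, which differed from each other by little, with a log2 fold change of 0.96 ± 0.18 (SE, adjusted p = 0.315, in DESeq2 0.00115, over all alternatives 0.00115 to 0.578). Areg, which encodes the EGF receptor ligand amphiregulin and is induced by estrogen in the gland, had 187, 30.3, 9.80, 56.2 and 19.1 against 129 to 614 with a median of 226, with overlap through isotype replicate 1 only (2.78 ± 0.61, adjusted p = 0.326).

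Cldn6, a tight junction claudin typical of embryonic epithelium, had 5.66, 8.27, 2.67, 2.76 and 0 normalized counts in isotype tumors and 20.03 to 81.2 with a median of 35.6 on anti-IL-38. Every tumor on the antibody was above every control, and the log2 fold change of 3.25 ± 0.57 was called by DESeq2 (adjusted p = 0.000228, over all alternatives 0.000228 to 0.578). Wnt4, the Wnt ligand that acts downstream of progesterone in the mammary gland, had 117, 81.8, 25.8, 53.4 and 6.67 against 123 to 383 with a median of 188 (2.30 ± 0.57, adjusted p = 0.373). Its groups did not overlap either. Gdf10, a secreted member of the BMP family, had 31.2, 21.1, 14.3, 4.61 and 0.953 against 41.3 to 91.2 with a median of 52.5 (2.47 ± 0.61, adjusted p = 0.373), again with each tumor on the antibody above each control, the lowest control being isotype replicate 5 for both genes.

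Other higher genes serve lysosomes, peroxisomes and the cell surface. Rnaset2a, which encodes a lysosomal ribonuclease, had 1382, 1747, 2289.6, 1520.4 and 1444 normalized counts in isotype tumors and 2537 to 3993 with a median of 2966 on anti-IL-38, a log2 fold change of 0.88 ± 0.15 (adjusted p = 0.304, in DESeq2 0.00129, over all alternatives 0.00129 to 0.578). It was separate between the groups, as was its near-identical copy Rnaset2b at 0.84 ± 0.16. Reads may be split between the copies, so that the values are read for the pair and not for either copy. The peroxisomal reductase Decr2 had 495, 401, 429, 416 and 306 against 574 to 689 with a median of 644 (0.65 ± 0.13, adjusted p = 0.326). Its groups lay apart with a small spread on both sides. Further genes in this direction were the ectoenzyme Enpp5 (0.86), Itm2c (0.84), the glutathione-degrading enzyme Ggt1 (2.53) and the respiratory chain subunit Ndufa4 (0.82), all called by DESeq2. Isotype replicate 3 held the highest control value of each of these 4 genes but Enpp5. Without it, limma called 6 genes, all higher, namely Rnaset2a, Rnaset2b, Itm2c, Ndufa4, Mrps21 and Tspan8. Bglap, the osteocalcin gene, was at 0 in 3 controls and at 12.4 to 48.1 on anti-IL-38 (adjusted p = 0.326), with the upper limit of a count of 0 at 3 reads.

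A separate set of higher genes shared a pattern across tumors and is held as uncertain, since near-identical copies of several of them lie elsewhere in the genome and could take or give reads. Ftl1, the ferritin light chain, had 89.7, 207, 1420.1, 927 and 1028 normalized counts in isotype tumors and 2013 to 8415 with a median of 5281 on anti-IL-38 (3.17 ± 0.64, adjusted p = 0.326). Isotype replicates 1 and 2 were far below the other 3 controls. The same 2 controls were the lowest for Psap, which encodes the precursor of the saposins (355, 587, 3726, 2437 and 2874 against 3836 to 13808 with a median of 5347), for the ribosomal protein gene Rps18 (62.3, 109, 825, 490.2 and 600.4 against 712 to 4221 with a median of 1638) and for Mrps21 (4.72, 5.52, 37.4, 10.1 and 9.53 against 36.2 to 143 with a median of 84.1), and they had the lowest shares of Gm42418. Anti-IL-38 replicate 4 was the highest tumor for all 4 genes.

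The lower genes included the licensing machinery of DNA replication. Mcm5, a subunit of the MCM helicase, had 974, 1053, 731, 760.2 and 1008 normalized counts in isotype tumors and 426 to 635 with a median of 524 on anti-IL-38, a log2 fold change of −0.78 ± 0.14 (adjusted p = 0.304, in DESeq2 0.00129, over all alternatives 0.00129 to 0.578). No tumor on the antibody reached the lowest control. Cdt1, which loads that helicase onto origins, had 513, 488, 403, 447 and 612 against 292 to 367 with a median of 325 (−0.57 ± 0.13, adjusted p = 0.326). Cdca8, a subunit of the chromosomal passenger complex of mitosis, had 887, 1046, 859, 900.3 and 1390.5 against 538 to 730.4 with a median of 668 (−0.62 ± 0.14). Dnajc9, a chaperone that binds histones, was at 348 to 489.9 in controls and 256 to 295 on anti-IL-38 (−0.55 ± 0.12). In each of these genes the groups did not overlap, and DESeq2 called all 4.

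Other lower genes with separate groups act in chromatin, RNA processing and stress. Jarid2, a cofactor of Polycomb repressive complex 2, had 1902, 1887, 1913, 1411 and 1553 normalized counts against 1146 to 1333 with a median of 1183 (−0.51 ± 0.11, adjusted p = 0.326). The metal-binding metallothionein Mt1 had 6126, 7967, 5679, 8060.0 and 5979 against 4297 to 4920.3 with a median of 4406 (−0.58 ± 0.12, adjusted p = 0.326). The spread within the antibody group was small for both. Inhba, whose product forms activin A, had 550.4, 466, 329, 413 and 462 against 248 to 324 with a median of 291 (−0.62 ± 0.14, adjusted p = 0.326). Ap2s1, a subunit of the clathrin adaptor AP-2 (−0.48), Jmy, an actin nucleator and p53 cofactor (−0.58), the RNA-binding protein gene Hnrnpd (−0.44), the tRNA splicing subunit gene Tsen34 (−0.43) and Cherp (−0.47) had log2 fold changes from −0.58 to −0.43, and DESeq2 called the first 3 of them. The largest differences among lower genes with separate groups were at low levels, in Zfp941 (7.36 to 12.3 against 1.27 to 5.78), Tmsb15b1 (11.6 to 26.7 against 0.934 to 11.4), Mmp27 (−0.98), Camk2a (−0.92), Lrrc28 (−0.90) and Pim2 (−0.81), none of them called by limma, edgeR or DESeq2. Among higher genes, Abcd4 (2.92) and Zbtb49 (2.31) were also at low levels, with 0 to 11.3 and 0 to 5.66 normalized counts in controls, but DESeq2 called both.

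**Figure D2:**
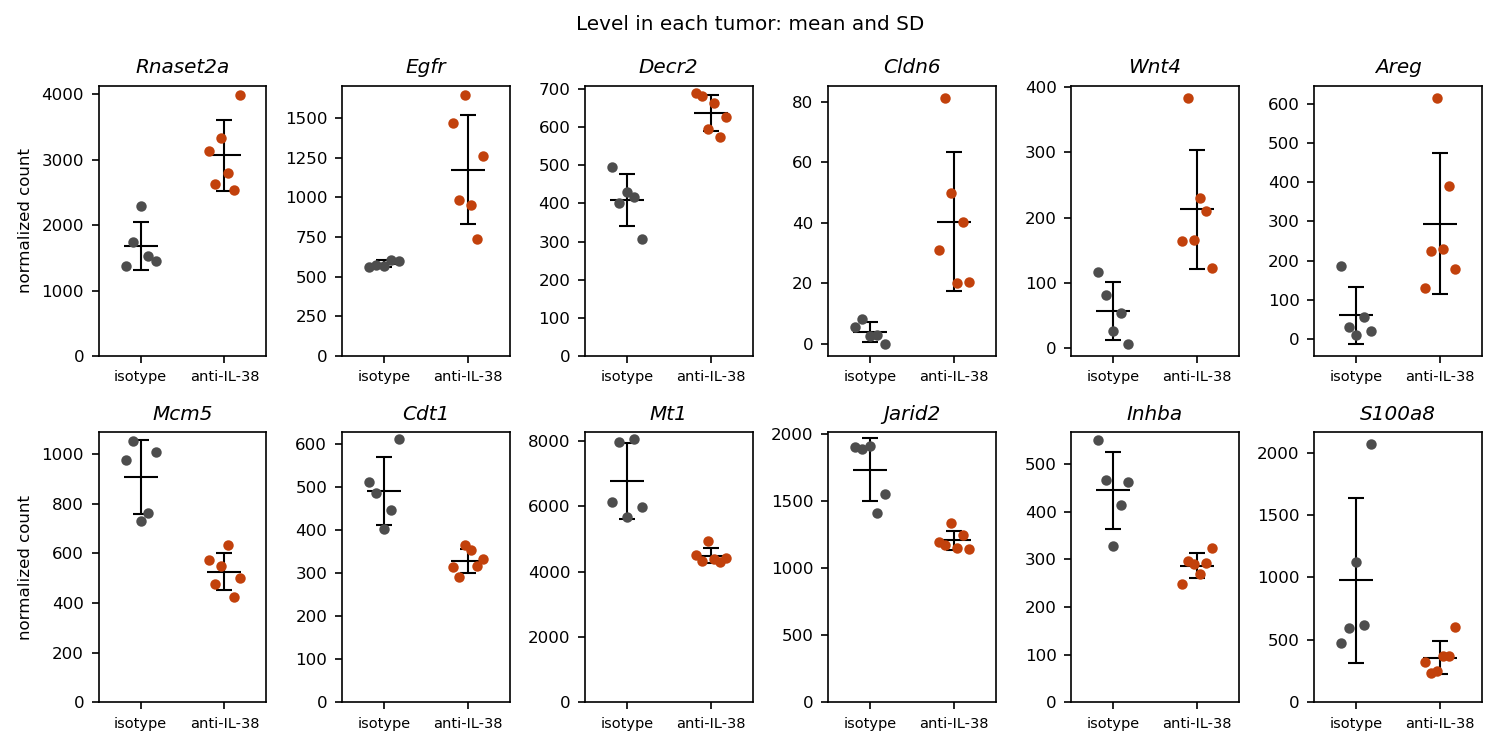
Normalized counts of 12 genes in the 5 isotype tumors (grey) and the 6 tumors on anti-IL-38 (orange), 1 point per tumor, with the mean and SD of each group and a separate axis for each gene. The groups do not overlap in 10 of the 12, the exceptions being Areg, through isotype replicate 1, and S100a8, through anti-IL-38 replicate 6.

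Proliferation genes were lower as a group. Of 33 genes of DNA replication, 32 had a lower mean on anti-IL-38 and 1 a higher one (the helicase subunit gene Mcm4, looked up after its value was seen, which turned lower without isotype replicate 2), with a median log2 fold change of −0.39, and of 31 genes of mitosis all 31 were lower, with a median of −0.43, while 49.8% of all tested genes were lower and 50.2% higher. An unadjusted p under 0.05 was reached by 13 and 14 of them, all lower, against 4.91% of all genes, and by 0 after adjustment in limma. Besides Mcm5 and Cdt1, the groups did not overlap for Pole, the catalytic subunit of DNA polymerase epsilon (125 to 254 normalized counts against 83.6 to 121), for Birc5, which encodes survivin (1398 to 2330.1 against 735 to 1337), and for the spindle genes Tpx2 (744 to 1901 against 488 to 737) and Nusap1 (695 to 1899 against 500.2 to 651). Together the genes with separate groups were 3 of the 33 replication genes and 3 of the 31 mitosis genes, all lower, against 0.644% of all tested genes. Plk1, the mitotic kinase, was at −0.80 ± 0.24, Orc1, of the origin recognition complex, at −0.88 ± 0.27, and the proliferation marker Mki67 at −0.54 ± 0.21.

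Isotype replicate 5 carried part of these differences. The mean log2 deviation of the mitosis genes from their average over the 11 tumors was 0.93 there, −0.12 to 0.16 in the other 4 controls and −0.42 to −0.03 on anti-IL-38, and that of the replication genes was 0.78, −0.05 to 0.15 and −0.43 to −0.05. Without that tumor, 29 of 33 and 27 of 31 genes were lower, 7 and 9 at an unadjusted p under 0.05, and the medians were −0.24 and −0.25. Replication genes at an unadjusted p under 0.05 numbered 8 with anti-IL-38 replicate 5 left out. Mcm5 did not rest on isotype replicate 5, with 731 to 1053 normalized counts in the other controls.

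The 250 bases before the start sites of these genes, from RefSeq on GRCm38.p6, were searched for letters of the E2F motif (TTTCCCGC, TTTGGCGC, TTTCGCGC or TTTGCCGC) and of the CHR (TTTGAA) on both strands. A promoter entry was matched for 26 of the replication genes and 26 of the mitosis genes. E2F letters stood in 9 of the 26 replication promoters (34.6%), 1 of the 26 mitosis promoters (3.85%) and 3.69% of the promoters of all tested genes, and CHR letters in 3 (11.5%), 10 (38.5%) and 13.3%. A match is a string of letters and not a measured site. The windows of 30 bases below, shown because they hold the letters in genes of the lower groups, have the matches in capitals. They lie upstream of the start site on the strand of the gene, at chr8:75109349-75109378 for Mcm5 (plus strand), chr4:108579416-108579445 for Orc1 (plus), chr11:98908002-98908031 for Cdc6 (plus), chr7:135716460-135716489 for Mki67 (minus) and chr4:118437344-118437373 for Cdc20 (minus).
Mcm5: caagaacTTTCGCGCCAAAacgtccagcct
Orc1: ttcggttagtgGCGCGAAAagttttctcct
Cdc6: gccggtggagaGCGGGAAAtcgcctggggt
Mki67: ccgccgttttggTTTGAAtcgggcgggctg
Cdc20: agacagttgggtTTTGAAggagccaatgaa
The Mcm5 window holds 2 overlapping matches on opposite strands.

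Luminal epithelial genes were higher. Of 24 such genes 23 had a higher mean on anti-IL-38, with a median log2 fold change of 0.70, and 8 had an unadjusted p under 0.05 in that direction (5.61% of all genes), 0 after adjustment. The hormone receptor Pgr had 194, 179, 20.5, 27.6 and 28.6 normalized counts in isotype tumors and 51.9 to 988 with a median of 433 on anti-IL-38 (2.42 ± 0.80, adjusted p = 0.417). The groups overlapped widely, with anti-IL-38 replicates 1 and 6 below 2 of the controls. The prolactin receptor Prlr was at 0.85 ± 0.31, the protease inhibitor Spint2 at 1.28 ± 0.36, and the claudins Cldn3 and Cldn4 at 0.76 ± 0.26 and 1.12 ± 0.45. The mean log2 deviation of the list ranged over −1.12 to −0.10 in controls and −0.32 to 1.08 on the antibody, lowest in isotype replicate 5 and highest in anti-IL-38 replicate 2. Without isotype replicate 5, 22 of 24 were higher with a median of 0.47, and 5 had an unadjusted p under 0.05. Genes of epithelial junctions followed the same direction, with 25 of 28 higher and a median of 0.40. Of basal and myoepithelial genes 14 of 19 were higher (median 0.60), with anti-IL-38 replicates 2, 4 and 5 above the highest control but replicate 6 below the lowest. Their median was 0.38 with isotype replicate 2 left out, 0.32 with isotype replicate 5 left out and 0.21 with anti-IL-38 replicate 2 left out, and the basal keratin Krt14 was at −0.92 ± 0.59.

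Among signaling genes, receptor tyrosine kinases and their ligands were mostly higher. Of 29 genes 24 were higher, with a median of 0.44, 7 at an unadjusted p under 0.05 higher and 1 lower (5.61% and 4.91% of all genes). Beside Egfr and Areg these included the neuregulin receptor Erbb4 (33.99, 24.8, 32.1, 25.8 and 12.4 normalized counts against 27.9 to 135 with a median of 63.2, 1.30 ± 0.39), the decoy receptor Fgfrl1 (0.87 ± 0.26) and Fgfr2 (1.78 ± 0.57). Of Wnt signaling genes 28 of 36 were higher (median 0.38, 6 higher and 0 lower at an unadjusted p under 0.05, beside 5.61% and 4.91% of all genes, the higher ones being 10 with isotype replicate 4 left out), among them the pseudokinase Ptk7 (648, 235, 778, 405 and 489.9 against 598 to 1813 with a median of 1039.7, 1.19 ± 0.32), the coreceptor Lrp5 (0.76) and the receptor Fzd1 (1.51). DESeq2 called Wnt4 and Ptk7. TGF-beta genes were mixed, with 21 of 32 higher (median 0.13, 0.23 with isotype replicate 3 left out, 0.25 with isotype replicate 4 left out and 0.21 with anti-IL-38 replicate 3 left out). The activin subunit Inhbb (0.66), the receptor Tgfbr2 (0.77) and the BMP target Id3 (1.27) were among the higher ones, against Inhba in the other direction.

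In the stroma, 22 of 24 fibroblast genes were higher on anti-IL-38 with a median of 0.40, and 3 had an unadjusted p under 0.05 (5.61% of all genes), the PDGF receptor gene Pdgfrb (0.71 ± 0.27), Thy1 (0.83 ± 0.34) and the collagen gene Col5a2 (0.67 ± 0.30). Within the low and the middle range of the numbers in the library descriptions the median was 0.68 and −0.50. The number at an unadjusted p under 0.05 was 1 with isotype replicate 5 or anti-IL-38 replicate 1 or 4 left out and 8 with anti-IL-38 replicate 3 left out, and the median was 0.23 with isotype replicate 5 left out. The abundant collagen Col1a1 was at 0.31 ± 0.33. The tumors overlapped, since anti-IL-38 replicate 3 was at a mean log2 deviation of −0.70 and isotype replicate 4 at 0.35. Genes of pericytes and smooth muscle were higher in 11 of 12 (median 0.77), with Mcam at 0.79 ± 0.26. Endothelial genes differed little (14 of 20 higher, median 0.13, with 1 tumor left out 0.03 to 0.28), except Apln, which encodes apelin, a peptide of tip cells, with 172, 56.1, 586, 375 and 516 normalized counts against 50.7 to 156 with a median of 98.6 (−1.46 ± 0.51). DESeq2 called Apln lower, and isotype replicate 2 lay at the low end of the tumors on the antibody while the other 4 controls were above all of them. Skeletal muscle genes, 18 of 20 higher (median 0.49), varied by tumor, with list deviations of −2.31 to 1.40 and −2.05 to 3.02, and their median with 1 tumor left out was −0.13 to 1.04. Adipocyte genes (9 of 18 higher), milk protein genes (8 of 17) and matrix remodelling genes (21 of 30) had medians of 0.02, −0.09 and 0.30, the last being 0.18 with isotype replicate 1 or anti-IL-38 replicate 6 left out and 0.13 with isotype replicate 5 left out.

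**Figure D3:**
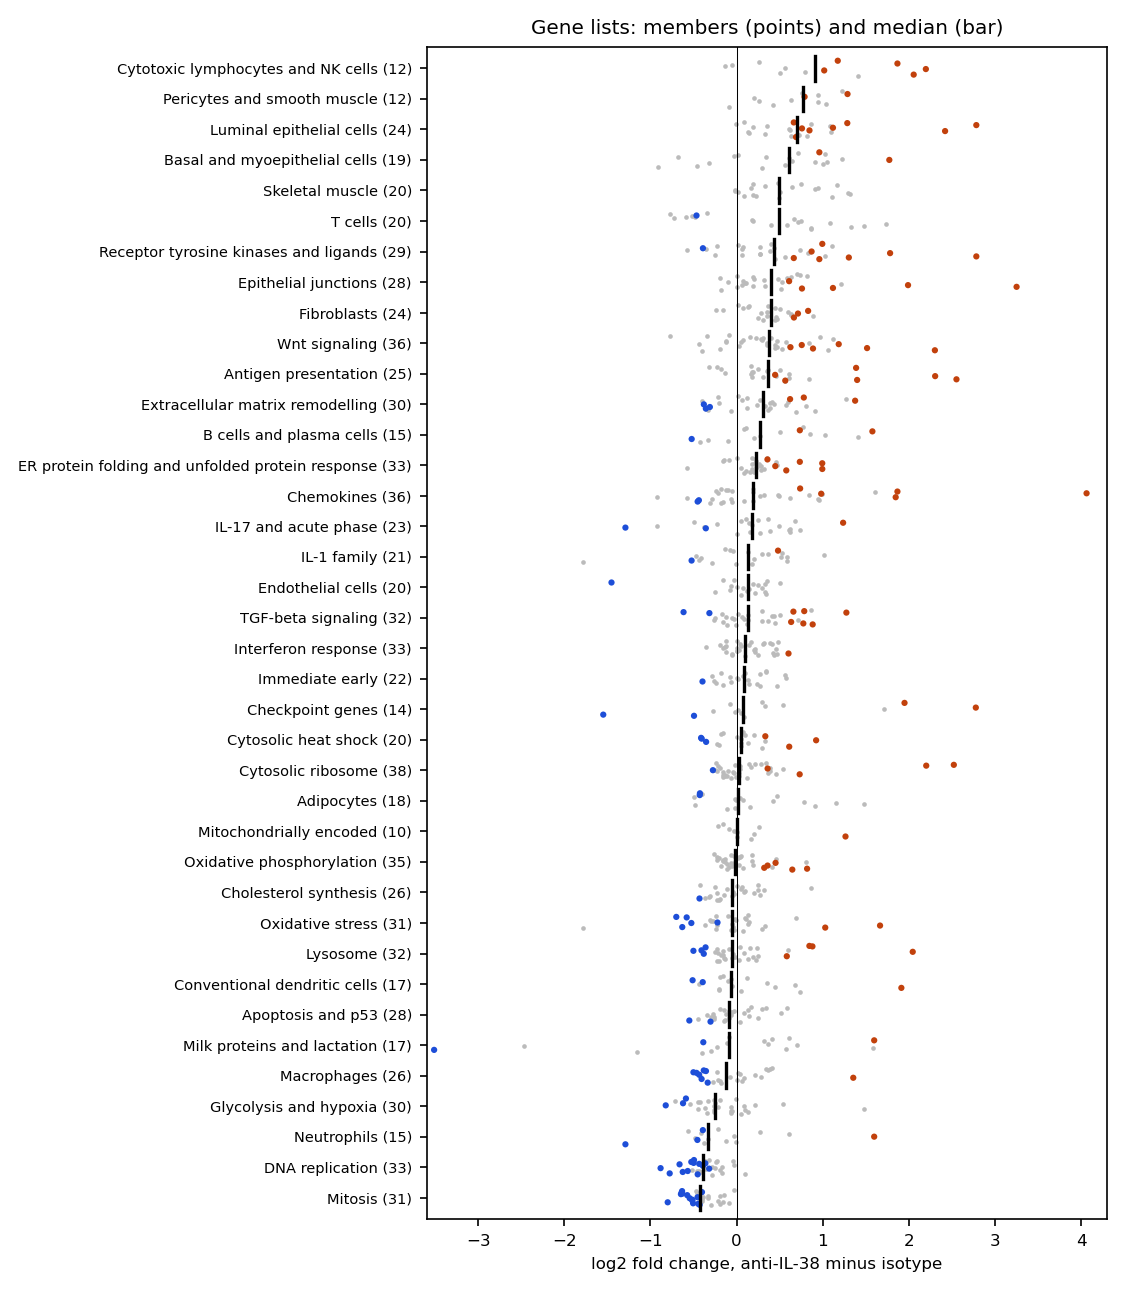
Log2 fold changes of the tested members (points, number in brackets) of 38 gene lists, with the list's median as a bar, ordered by it. Coloured points have an unadjusted limma p under 0.05, higher in orange and lower in blue. With all 11 tumors, mitosis and DNA replication have the lowest medians, −0.43 and −0.39, and cytotoxic lymphocytes the highest, 0.91. With no filter on low values the cytotoxic median is 0.56, below those of luminal genes (0.70) and of pericytes and smooth muscle (0.76).

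Macrophage genes were split. Of 26 genes 14 were lower and 12 higher, with a median of −0.12, but 7 had an unadjusted p under 0.05 in the lower direction (4.91% of all genes) and 1 in the higher. The lower count was 3 with isotype replicate 1 or 5 left out and 4 with anti-IL-38 replicate 1 or 2 left out, and the median was −0.06 with isotype replicate 1 left out, −0.04 with isotype replicate 2 left out and −0.20 with isotype replicate 4 left out. Gpnmb, a glycoprotein of macrophages and other cells, had 88898, 70989, 53276, 57868 and 81484 normalized counts in isotype tumors and 39434 to 61876 with a median of 48357 on anti-IL-38 (−0.50 ± 0.19, adjusted p = 0.425). Trem2, a lipid receptor, had 3023, 2857, 2289, 2392 and 3318 against 1599 to 2403 with a median of 1985 (−0.47 ± 0.14), and the apoptotic cell receptor Mertk and the fatty acid carrier Fabp5 were at −0.41 ± 0.13 and −0.36 ± 0.13. In all 4 genes isotype replicate 5 was among the 2 highest controls, isotype replicate 3 the lowest control and anti-IL-38 replicate 1 the lowest tumor, and the groups overlapped. Cd163, of resident macrophages, had a higher mean (21.7, 28.5, 22.3, 9.21 and 1.91 against 13.9 to 53.7 with a median of 40.1, 1.35 ± 0.57), and the pan-macrophage marker Adgre1 was at −0.18 ± 0.13.

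Genes filed under other cell types had the pattern of Gpnmb. Il7r, in the list of T cells, had 4646, 3763, 2897, 2937 and 4249 normalized counts against 2109 to 3340.5 with a median of 2543 (−0.47 ± 0.16) and made up 83.0% to 93.1% of that list's summed level. Mmp8, in the list of neutrophils, had 6981, 5107, 4083, 4385 and 6029 against 3100.1 to 4849 with a median of 3624 (−0.46 ± 0.17). Itgax, which encodes CD11c, had 5807, 4480.2, 3744, 3773 and 4767 against 2834 to 4092 with a median of 3394 (−0.39 ± 0.14), and the chemokine gene Ccl9 7367, 5483, 4761, 5114 and 6649 against 3343 to 5531 with a median of 4367 (−0.44 ± 0.16). For all of these, as for Gpnmb, isotype replicate 1 was the highest tumor and isotype replicate 3 the lowest control.

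Neutrophil and acute phase genes were lower in part. Of 15 neutrophil genes 12 were lower (median −0.34, −0.17 with isotype replicate 2 left out, −0.20 with isotype replicate 3 left out and −0.19 with anti-IL-38 replicate 3 left out), led by S100a8, a calgranulin subunit, with 479, 598, 1119.9, 621 and 2068 normalized counts against 234 to 607 with a median of 345. Its log2 fold change was −1.29 ± 0.35 (adjusted p = 0.376, in DESeq2 0.0258, over all alternatives 0.0258 to 0.589), and isotype replicates 5 and 3 were the highest. The other calgranulin subunit gene, S100a9, was at −0.375 ± 0.320 (limma, unadjusted p = 0.261). An unadjusted p under 0.05 was reached by 3 of the 15 neutrophil genes in the lower direction (4.91% of all genes), S100a8, Mmp8 and Clec4d (−0.392 ± 0.167). In the higher direction it was reached by 1 of the 15 (5.61% of all genes), the lactoferrin gene Ltf (1.597 ± 0.722). Of 23 IL-17 and acute phase genes 16 were higher (median 0.18, −0.01 with isotype replicate 5 left out and 0.34 with anti-IL-38 replicate 5 left out), with the lipocalin Lcn2 at 0.61 ± 0.30 and the serum amyloid Saa3 at −0.36 ± 0.14. Oxidative stress genes were lower in 20 of 31 (median −0.05), 5 of them at an unadjusted p under 0.05 (4.91% of all genes, and 10 with isotype replicate 3 left out, 3 with isotype replicate 5 or anti-IL-38 replicate 1 left out and 8 with anti-IL-38 replicate 6 left out), with Mt1 and the heme oxygenase Hmox1 (1327, 1203, 862, 925 and 1283 against 652 to 904 with a median of 739, −0.53 ± 0.14) in front, while the glutathione peroxidase Gpx3 was at 1.03 ± 0.34. Glycolysis and hypoxia genes were lower in 23 of 30 with a median of −0.26, −0.11 without isotype replicate 5. The lactate exporter Slc16a3 had 2084 in that tumor and 379 to 552 in the other controls, against 291 to 419 on anti-IL-38, and Ddit4 and Bnip3 were at −0.59 and −0.62.

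Genes of cytotoxic lymphocytes and NK cells had a median of 0.91, with 10 of 12 tested genes higher and 5 at an unadjusted p under 0.05 (5.61% of all genes), at low levels throughout. The list named 19 genes, and 7 of them, Prf1, Ncr1 and Ifng included, averaged under 5 normalized counts. With no filter on low values, 16 of 19 were higher with a median of 0.56. Xcl1, the ligand that draws XCR1+ dendritic cells, had 16.1, 3.68, 16.9, 9.21 and 2.86 normalized counts in isotype tumors and 15.9 to 78.3 with a median of 29.3 on anti-IL-38 (1.87 ± 0.50, adjusted p = 0.376). The protease gene Ctsw had 35.9, 32.2, 44.5, 56.2 and 12.4 against 54.3 to 110.2 with a median of 77.4 (1.17 ± 0.34), and granzyme B, Gzmb, 17.9, 2.76, 29.4, 4.61 and 0 against 19.6 to 39.6 with a median of 25.5 (2.06 ± 0.71). The groups overlapped for all 3, by 1 tumor on the antibody for Xcl1. The NK receptor subunit Klrd1 was at 2.20 ± 0.85. Isotype replicate 5 had the lowest list deviation, −1.96 against −0.62 to 0.32 in the other controls and −0.04 to 0.96 on the antibody, and without it the median was 0.54 with 10 of 12 higher and 3 at an unadjusted p under 0.05. That number was 3 with isotype replicate 2 or anti-IL-38 replicate 2 left out.

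T cell genes gave no direction that holds, with 13 of 20 higher and a median of 0.49, but 9 of 20 without isotype replicate 5. The median was 0.73 with isotype replicate 2 left out, −0.22 with isotype replicate 5 left out, 0.25 with anti-IL-38 replicate 3 left out and 0.12 with anti-IL-38 replicate 4 left out. Cd8a, of cytotoxic T cells, had 21.7, 20.2, 7.13, 9.21 and 0 normalized counts against 2.53 to 27.1 with a median of 11.97 (0.40 ± 0.83, adjusted p = 0.884), and the γδ T cell receptor constant region Trdc 14.2, 1.84, 7.13, 3.69 and 0 against 0 to 16.04 with a median of 4.38 (0.19 ± 0.87, adjusted p = 0.954). Both ranges were nearly the same, and the standard errors exceed the differences. For neither gene was a difference detectable against the spread between tumors. Trac, the αβ counterpart of Trdc, was at 1.08 ± 0.52. The other CD8 chain, Cd8b1, was higher at 1.73 ± 0.87 (adjusted p = 0.488), and Cd28 was lower at −0.48 ± 0.24 (adjusted p = 0.488). Dendritic cell genes were higher in 7 of 17 (median −0.06), and B and plasma cell genes in 11 of 15 (median 0.27, 0.15 with anti-IL-38 replicate 2 left out). Of the dendritic genes, Itgae (1.91 ± 0.75) was higher and Itgax and Fscn1 (−0.51 ± 0.20) lower at an unadjusted limma p under 0.05. Of the B and plasma cell genes, Igha (1.58 ± 0.64) and Xbp1 (0.73 ± 0.33) were higher and Cd22 (−0.52 ± 0.16) lower at that level. Over all genes the shares were 5.61% higher and 4.91% lower.

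Antigen presentation genes were higher in 21 of 25, with a median of 0.36 and 6 at an unadjusted p under 0.05 (5.61% of all genes), and without isotype replicate 5 in 21 of 25 with a median of 0.24. The immunoproteasome subunit Psmb8 had 1929, 1597, 1274, 1476 and 1338 normalized counts against 1654 to 2651 with a median of 2031 (0.45 ± 0.15). The MHC class I genes H2-Q4 (1.40 ± 0.49) and H2-Q6 (2.55 ± 0.60, called by DESeq2) belong to a family of near-identical copies, and their single values are uncertain. Tap2, a peptide transporter subunit, had 270.0, 20.2, 382, 178 and 132 against 178 to 3033 with a median of 640.2 (2.30 ± 0.73), with anti-IL-38 replicate 2 far above the others and replicate 4 at the level of isotype replicate 4. Interferon response genes were higher in 24 of 33 with a median of 0.09, with 1 tumor left out −0.04 to 0.19, and only Isg20 (0.60 ± 0.27) had an unadjusted p under 0.05.

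Checkpoint and chemokine genes went both ways. Cd274, which encodes PD-L1, had 584, 490.0, 474, 459 and 648 normalized counts against 316 to 486 with a median of 349.7 (−0.49 ± 0.15, adjusted p = 0.412), and Pdcd1lg2, of PD-L2, was at −1.55 ± 0.59. Icos, a costimulatory receptor of T cells, had 2.83, 1.84, 1.78, 14.7 and 0.953 against 7.60 to 36.8 with a median of 10.8 (1.95 ± 0.62), and the tryptophan-degrading enzyme Ido1 0, 20.2, 0, 12.9 and 0 against 0 to 260.5 with a median of 21.5 (2.78 ± 1.28). Isotype replicate 4 for Icos and anti-IL-38 replicate 2 for Ido1 stood away from their groups. Of 36 chemokine ligand and receptor genes 20 were higher (median 0.19, with 1 tumor left out 0.02 to 0.28). Among the higher ones were chemokines known from epithelia, Cxcl15 with 5.66, 37.7, 1.78, 0 and 33.4 against 20.3 to 639 with a median of 136 (4.06 ± 1.06) and Ccl28 at 1.85 ± 0.64.

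**Figure D4:**
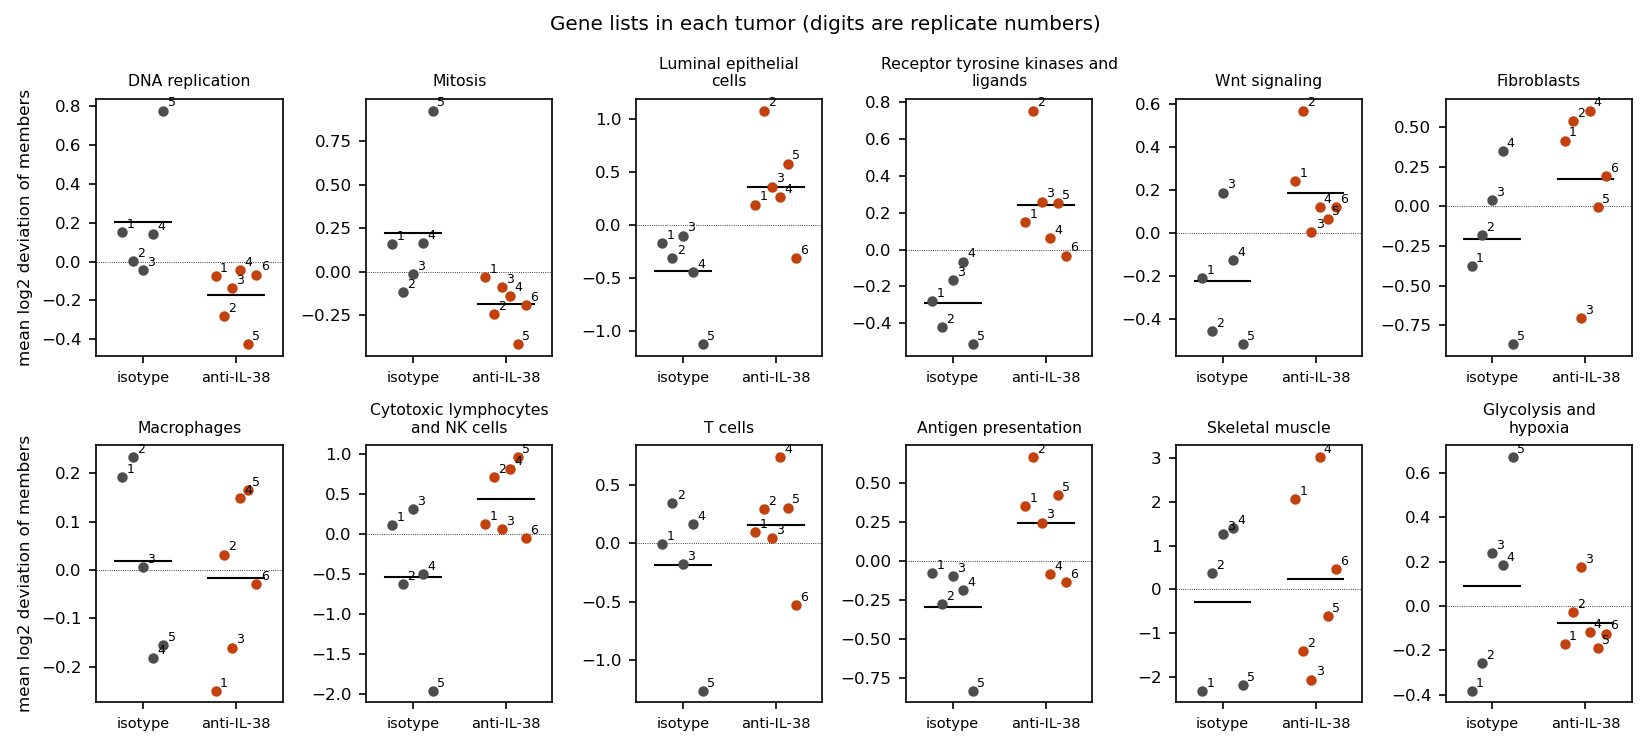
Mean log2 deviation of a list's tested members from their average over the 11 tumors, for 12 lists, with 1 point per tumor (digits are replicate numbers), a bar at the group mean and a separate axis for each list. Isotype replicate 5 is the highest tumor for replication and mitosis genes (0.78 and 0.93) and the lowest for luminal and cytotoxic genes (−1.12 and −1.96).

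Housekeeping programs had medians nearer to 0. ER folding genes were higher in 29 of 33 with a median of 0.23 and 6 at an unadjusted p under 0.05 (5.61% of all genes), among them the disulfide isomerases Txndc5 (194, 148, 354, 209 and 278 normalized counts against 311 to 733 with a median of 411, 0.99 ± 0.25) and Pdia4 (0.58 ± 0.22) and the ubiquitin ligase Syvn1 (0.99 ± 0.33). Isotype replicate 3 was the highest control for the list as a whole, at a deviation of 0.31 against −0.28 to −0.22 in the other controls. The number at an unadjusted p under 0.05 was 2 with isotype replicate 1 left out, 10 with isotype replicate 3 left out and 3 with isotype replicate 4 or anti-IL-38 replicate 3 left out, and the median was 0.14 with anti-IL-38 replicate 3 left out. Genes of oxidative phosphorylation (17 of 35 higher, median −0.02), the cytosolic ribosome (20 of 38, 0.03), lysosomes (14 of 32, −0.05), cholesterol synthesis (11 of 26, −0.05), cytosolic heat shock (13 of 20, 0.05), immediate early response (14 of 22, 0.08), apoptosis (10 of 28, −0.09) and the mitochondrial genome (6 of 10, 0.0067) had medians near 0. The mitochondrial chaperonin pair Hspd1 and Hspe1 were both at −0.41 (1405 to 1686 normalized counts against 1039.6 to 1526 for Hspd1). Of 21 tested genes of the IL-1 family and its signaling 11 were higher (median 0.13, with 1 tumor left out 0.03 to 0.17), with the kinase Irak2 at 0.48 ± 0.19.

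The antibody comparison was set beside the knockout comparison of the same table, 4 tumors of IL-38 KO mice against 4 of WT mice, both given IgG weekly over 5 weeks. The 4 groups share no library, and the IgG of the knockout experiment was polyclonal hamster IgG rather than human IgG1. Per the paper, injections in the knockout experiment started at a set age. In the antibody experiment they started once a first tumor had reached a set size, and the doses differed as well. The part of these differences in the values below was not tested. A difference between the effects was tested as an interaction over 16352 genes, of which 1 (0.00612%) passed an adjusted p of 0.05, the predicted gene Gm10093, at 0.11 on anti-IL-38 and 4.03 in the knockout, and 1255 (7.67%) had an unadjusted p under 0.05, 694 with the antibody value higher (4.24%) and 561 lower (3.43%). IL-38 KO replicate 4 had 11.3% of its reads on Gm42418 and 1.46% on processed pseudogenes, against at most 5.70% and 0.191% in the other 7 libraries.

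Proliferation and interferon genes had different medians in the comparisons. In the knockout, 27 of 31 mitosis genes and 22 of 33 replication genes were higher, with medians of 0.19 and 0.11, or 0.15 and 0.04 without IL-38 KO replicate 4, against −0.43 and −0.39 on the antibody. An unadjusted interaction p under 0.05 with the antibody lower was reached by 16 and 10 of them (3.43% of all genes), or 11 and 8 without that tumor. Without isotype replicate 5 the antibody medians were −0.25 and −0.24. Interaction counts of the lists were not taken without isotype replicate 5. Orc1 was at 0.95 in the knockout (limma interaction, adjusted p = 0.362) and Mcm5 at −0.06. Interferon response genes were lower in all 33 of 33 in the knockout (median −0.58, without replicate 4 −0.58 with 32 lower). On the antibody they were centred at 0.09. With the antibody value higher, 14 of them reached an unadjusted interaction p under 0.05 (4.24% of all genes), or 12 without replicate 4. With that value lower, 0 did in either case. Their antibody median was −0.04 without isotype replicate 5. Psmb8 was at −0.59 in the knockout against 0.45 (limma interaction, adjusted p = 0.404).

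Luminal genes were centred at 0.12 in the knockout, or 0.01 without replicate 4 (7 and 8 of 24 at an unadjusted interaction p under 0.05), and cytotoxic genes at −0.48, or −0.41 without it (5 and 6 of 12, against 4.24% of all genes). Among the genes above, the knockout value was 0.01 for Cldn6, −0.57 for Areg, −1.45 for Pgr, −0.59 for Wnt4, 0.35 for Egfr and 0.42 for Rnaset2a. Macrophage genes were lower in 22 of 26 in the knockout (median −0.45, −0.27 without replicate 4), with Gpnmb at −1.48, Trem2 at −1.09 and Mertk at −0.73, while 4 of 26 had an unadjusted interaction p under 0.05 with the antibody value higher and 0 lower (3 and 0 without replicate 4). The medians of junction, Wnt and ER folding genes lay close together, at 0.32, 0.44 and 0.27 in the knockout, as did single genes such as Ptk7 (1.06 and 1.19), Txndc5 (0.93 and 0.99) and Inhba (−0.53 and −0.62). A missing interaction does not show that the effects were the same.

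**Figure D5:**
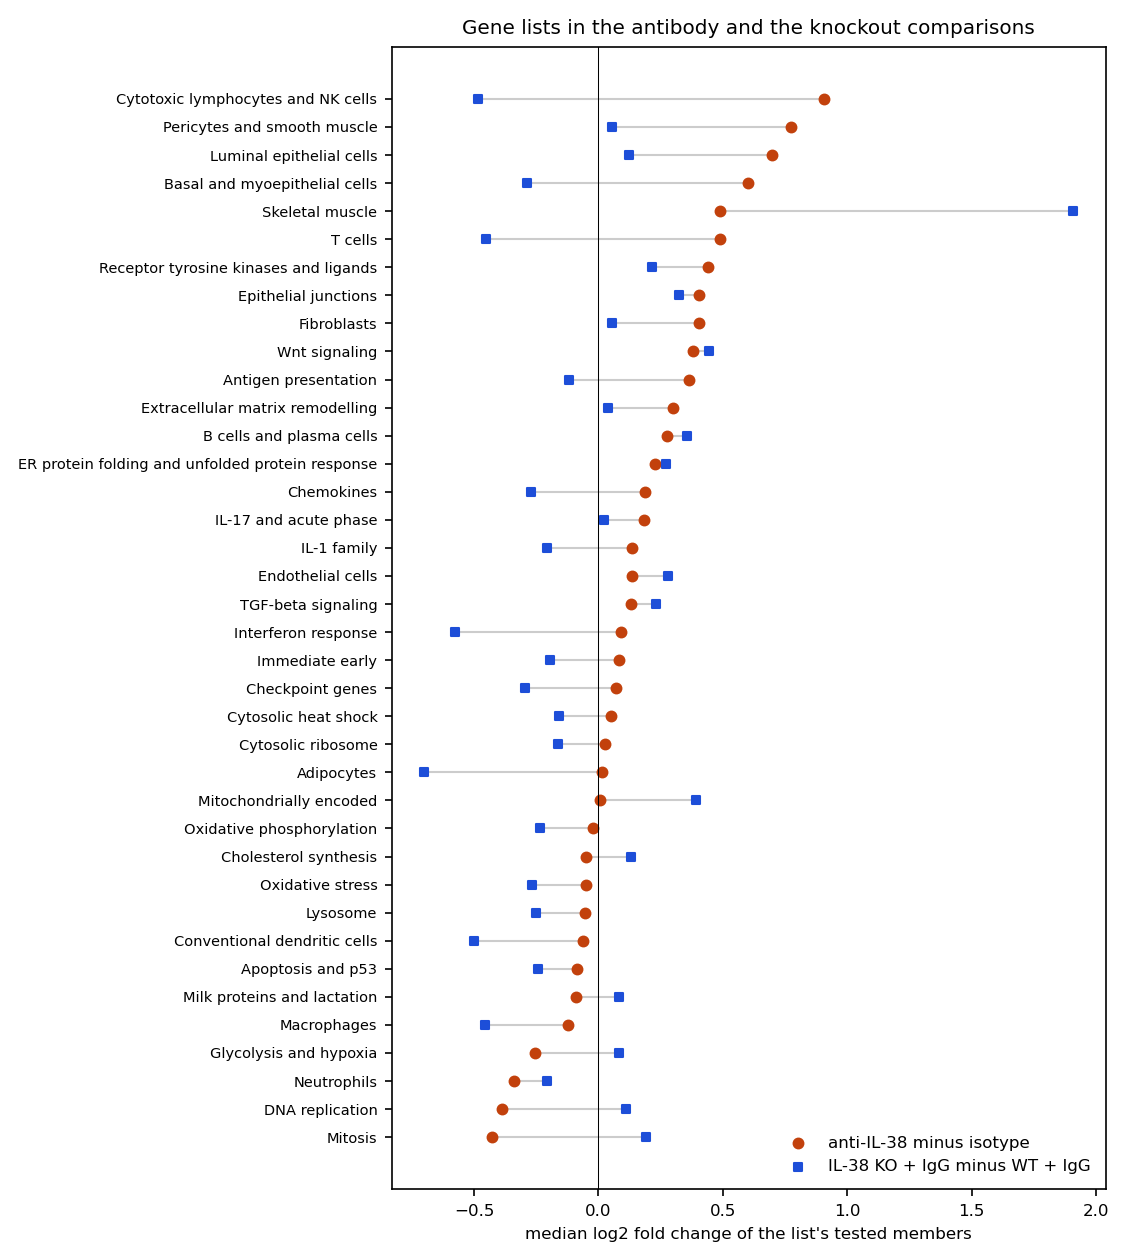
Median log2 fold change of each list's tested members for anti-IL-38 minus isotype (orange circles) and for IL-38 KO + IgG minus WT + IgG (blue squares), joined by a line. Mitosis and replication genes lie on opposite sides of 0 in the 2 comparisons, and macrophage genes on the same side.

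The numbers in the library descriptions fall into 3 ranges, a low one (3 isotype and 2 anti-IL-38 tumors), a middle one (2 and 1) and a high one (0 and 3), and what they mark is not given. In the high range the number and the antibody cannot be told apart. Isotype replicate 5, which stood apart from the other tumors, is 1 of the 2 controls of the middle range. The values of that range therefore depend on it, and on 1 tumor on the antibody. Within the low and the middle range, the difference of group means was −0.80 and −0.68 for Mcm5, 1.08 and 1.45 for Egfr, 1.97 and 3.02 for Wnt4, −0.56 and −0.50 for Mt1 and −0.81 and −0.57 for Gpnmb. The list medians were −0.24 and −0.66 for replication, −0.11 and −0.69 for mitosis, 0.62 and 0.83 for luminal genes and −0.30 and −0.26 for macrophages. The sign of the median differed between the ranges for B cells and plasma cells (0.77 and −0.02), basal and myoepithelial cells (0.98 and −0.16), milk proteins and lactation (−0.31 and 0.93), skeletal muscle (0.47 and −1.59), fibroblasts (0.68 and −0.50), endothelial cells (0.35 and −0.23), IL-1 family (−0.19 and 0.17), IL-17 and acute phase (−0.01 and 0.20), checkpoint genes (0.28 and −0.11), mitochondrially encoded (−0.01 and 0.48), cytosolic ribosome (0.02 and −0.07), cholesterol synthesis (0.21 and −0.38), cytosolic heat shock (0.05 and −0.18), immediate early (−0.01 and 0.14) and extracellular matrix remodelling (0.32 and −0.13).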

How the data were processed

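The deposited values are a signal, namely read counts per gene that the authors scaled with 1 size factor per library across 19 libraries. Per the labels' processing notes STAR, HTSeq and DESeq2 were used on GRCm39, and the study's methods name the QuantSeq pipeline of BlueBee Genomics. Coordinates of genes were not used, since the annotation at hand is GENCODE M21 on GRCm38, and it gave symbols for 47224 of 47643 identifiers. Groups were taken from the sample titles, and all columns of the table have a sample. The other 4 libraries of the series were not used here.

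Every value was a whole multiple of the value of 1 read (0.891 to 1.27) in the 11 libraries within 0.0001%, so that reads could be recovered for edgeR 4.0.16 and DESeq2 1.42.0. The limma 3.58.1 fit (R 4.3.3, eBayes with trend, two-sided, Benjamini-Hochberg) used log2(normalized count + 1) and genes with a mean of at least 5, in 11 libraries for the antibody and in 19 for the interaction. A threshold of 0.05 was used throughout. The fits were tested on simulated counts. DESeq2 gave no adjusted p for 33 genes. No pair among the 55 pairs of libraries agreed within sampling noise (chi-square per degree of freedom 28.4 to 129).

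The comparison, the 38 gene lists and the genes described were chosen with earlier results of these data known. Genes are named where they had 1 of the 12 smallest p in a direction, 1 of the 6 largest changes with separate groups, 1 of the 4 smallest p in a list, or define a cell type. Predicted genes were passed over except Gm10093, Notch genes were left out, and a gene that the rule would name is not reported here. Tspan8, Mki67, Col1a1, Prlr, Cldn4, Fgfr2, Cd163, Nusap1, Cdc6, Cdc20 and S100a9 were added after values were seen. List medians stand beside those of all genes and carry no test. As alternatives, pseudocounts of 0.5 or 5, no filter, a mean of at least 20, TMM, quantile normalization, edgeR, DESeq2, a replicate block, the number in the description, and the omission of each library were tried. Values of lists without IL-38 KO replicate 4 were added after seeing the data. Since reads carry no molecular identifiers, limits from counts cover counting error only.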

Additional observations from a re-analysis of the deposited data

Results flagged for a closer look

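Single tumors that lay far from the others of their group, by Dixon's test at 95%, were sought for most genes described and each gene list, and 36 of 300 groups of values held one, where chance alone gives about 1 in 20. Values below are normalized counts against the range of the other tumors of the group, and for lists mean log2 deviations. Isotype replicate 5 was high for Nusap1 (1899 against 695 to 756), Plk1 (1997 against 963 to 1244), Pole (254 against 125 to 158), Tpx2 (1901 against 744 to 968), Slc16a3 (2084 against 379 to 552) and Tmsb15b1 (26.7 against 11.6 to 15.7) and for the lists of DNA replication (0.78 against −0.05 to 0.15) and mitosis (0.93 against −0.12 to 0.16). It was low for the lists of milk proteins and lactation (−1.88 against 0.34 to 0.82), interferon response (−0.47 against −0.07 to 0.07) and antigen presentation (−0.83 against −0.28 to −0.08).

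Isotype replicate 3 was high for Rnaset2b (1410.3 against 870.5 to 894), Itm2c (4492 against 2481 to 2831), Mrps21 (37.4 against 4.72 to 10.1), Ndufa4 (591 against 325 to 368) and Tgfbr2 (1033 against 405 to 549) and for the list of ER protein folding and unfolded protein response (0.31 against −0.28 to −0.22), in the direction of the tumors on anti-IL-38. Isotype replicate 1 was high for Areg (187 against 9.80 to 56.2) and low for the list of cytosolic heat shock (−0.28 against −0.0014 to 0.09), replicate 2 was high for Bglap (13.8 against 0 to 1.91) and replicate 4 for Icos (14.7 against 0.953 to 2.83).

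On anti-IL-38, replicate 2 was high for Tap2 (3033 against 178 to 897), Ido1 (260.5 against 0 to 60.97), Fzd1 (200.1 against 56.6 to 101.8), Trac (46.2 against 12.7 to 23.8), Xcl1 (78.3 against 15.9 to 32.3) and Tgfbr2 (1519 against 742 to 924) and for the list of receptor tyrosine kinases and ligands (0.75 against −0.03 to 0.26). Replicate 4 was high for Psap (13808 against 3836 to 6424), Rps18 (4221 against 712 to 1973), Thy1 (627 against 292 to 398) and Hspd1 (1526 against 1039.6 to 1219) and for the list of cytosolic ribosome (0.49 against −0.06 to 0.04). Replicate 3 was high for Mt1 (4920.3 against 4297 to 4513) and low for Pdcd1lg2 (0 against 4.72 to 7.47), and replicate 6 was high for S100a8 (607 against 234 to 369.9).

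The effects of the antibody and of the knockout differed for Gm10093, by −3.92 on the log2 scale (limma interaction, adjusted p = 0.0178). The adjusted p no longer passed without any 1 of WT replicates 1 to 3, IL-38 KO replicate 3 or isotype replicate 4.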

How the results depend on the processing

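Limma called 0 genes under other pseudocounts, filters, TMM rescaling, quantile normalization, the range of the description number as a term or without the 3 anti-IL-38 libraries of the high number range, and edgeR called 0, against 75 in DESeq2. The deviations of same-numbered tumors correlated at −0.112 to 0.0684. No pairing by replicate number was visible in these values, which cannot exclude one. With the replicate number as a block, in which anti-IL-38 replicate 6 has no partner, limma called 1 gene, Folr1, named after its values were seen. Without 1 tumor in turn it called 0 to 6, the 6 without isotype replicate 3. Genes at an unadjusted p under 0.05 numbered 1805 under quantile normalization, where 731 were higher and 1074 lower against 897 and 785. Genes with separate groups numbered 213 to 538 without 1 tumor and 1270 without the 3 libraries of the high range, since fewer tumors have to be separate. The interaction with the knockout counted 0 to 2 genes without 1 of the 19 tumors. It was not run in edgeR or DESeq2, because whole reads cannot be claimed for WT replicate 1. The log2 fold change of Trdc turned to −0.00420 with the number range as a term, −0.35 when isotype replicate 5 was omitted and −0.11 when anti-IL-38 replicate 4 was. The log2 fold change of Cd8a turned to −0.37 without isotype replicate 5, and the log2 fold change of Gm10093 to −0.00226 and −0.044 without anti-IL-38 replicates 1 and 2. Over the libraries left out in turn, Cd8a ranged from −0.37 to 0.76, Trdc from −0.35 to 0.65 and Gm10093 from −0.044 to 0.29. No other gene that was followed singly under all these alternatives changed direction. Mcm4, which turned lower without isotype replicate 2, was not followed in this way. Nor were some other named genes, such as S100a9, Clec4d, Ltf, Cd8b1 and Cd28. Depth limits genes at few reads, such as Trdc, Cd8a, Icos and Klrd1, through counting error.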
